A study of Mus musculus with 2 samples.

Results

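Npr3-positive endocardial-type endothelial cells numbered 111 of the 9369 cell barcodes of the pool (1.18%, exact Clopper-Pearson 95% interval 0.976 to 1.43%). A barcode, which stands for a cell, was taken when it held at least 1 UMI of Npr3 (a unique molecular identifier, or UMI, stands for a captured transcript), at least 3 UMIs of the endothelial genes Pecam1, Cdh5 and Egfl7 together, no UMI of Gpihbp1, Pdgfra or Csf1r, and a UMI of at most 2 of the 6 lymphatic genes Prox1, Mmrn1, Reln, Flt4, Ccl21a and Lyve1. The study asked about neurotensin from lymphatic vessels in the pressure-overloaded heart. The cells other than cardiomyocytes came from 4 Nts KO and 3 control mice, 7 days after TAC, an operation that narrows the aorta and loads the left ventricle. All mice had TAC, so no unoperated heart stands beside them. The genotype label of the pooled library reads 6-8 weeks old WT although its title counts KO mice, and neither the Nts allele nor any driver of a Cre is named. Cells of each mouse carried a hashtag antibody, living cells (calcein-AM positive, DAPI negative) were sorted into 1 tube, and 1 gene expression library was made from it. The hashtag library was not analysed here, so the mouse behind each cell is not known. KO and control mice were therefore not compared. The pool counts as n = 1, its cells cannot stand in for replicates, and values are given with counting intervals and no p-value.

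The endocardium is the endothelial sheet that lines the chambers and covers the valves of the heart. It is continuous with the vessels but exchanges signals with the muscle beneath it, among them neuregulin and endothelin, and during development it gives rise to valve mesenchyme. Npr3, the natriuretic peptide clearance receptor, is widely used to mark it. The capillaries of the heart, marked by Gpihbp1, the carrier of lipoprotein lipase, take up fatty acids for the muscle.

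The 111 endocardial barcodes held 763870 UMIs, with a median of 5814 per barcode (2718 to 29125). Gpihbp1-positive capillary barcodes, with no Npr3 and otherwise the same rule, numbered 179 with 884876 UMIs and a median of 4384. Lymphatic endothelial barcodes, with a UMI of at least 3 of the 6 lymphatic genes, numbered 67 with 354586 UMIs and a median of 5008. Levels are in CPM, the UMIs that a gene had in a set divided by all UMIs there and scaled as usual. Intervals are exact 95% intervals that cover counting error only, and not differences between mice. A called gene differed at least 2-fold in CPM among genes with at least 50 UMIs over both sets.

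Npr3 chose the cells, so its level is a description. It summed to 890 UMIs in the endocardial barcodes, 1 to 30 per barcode with a median of 7, out of 1694 in the whole pool. The threshold left 15 barcodes with exactly 1 Npr3 UMI, in which Emcn was at 901 CPM and Plvap at 432 CPM, beside 2261 CPM and 2471 CPM in the 96 barcodes with 2 or more. Just outside, 33 endothelial barcodes held both Npr3 and Gpihbp1 and 114 held neither. Npr3 lies on chromosome 15 of the mouse genome build GRCm38, from 11839896 to 11907287 on the minus strand.

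The promoter windows of 3 genes are shown because they belong to the gene that defines the cells and to the transcription factor gene Hand2 with its antisense neighbour Hand2os1, which were high together in the endocardial barcodes. Each is the 250 bases before the RefSeq start site in GRCm38.p6, read 5′ to 3′ on the strand of the gene: chr15:11907372-11907621 (minus) for Npr3, chr8:57320733-57320982 (plus) for Hand2 and chr8:57320860-57321109 (minus) for Hand2os1. Capitals mark matches on either strand to the GATA motif or the E-box spelled out after the sequences.
Npr3: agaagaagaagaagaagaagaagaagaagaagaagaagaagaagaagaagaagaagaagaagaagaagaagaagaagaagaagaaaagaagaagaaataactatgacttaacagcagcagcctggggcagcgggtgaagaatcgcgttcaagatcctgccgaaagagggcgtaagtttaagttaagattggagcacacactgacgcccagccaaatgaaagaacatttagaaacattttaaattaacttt
Hand2: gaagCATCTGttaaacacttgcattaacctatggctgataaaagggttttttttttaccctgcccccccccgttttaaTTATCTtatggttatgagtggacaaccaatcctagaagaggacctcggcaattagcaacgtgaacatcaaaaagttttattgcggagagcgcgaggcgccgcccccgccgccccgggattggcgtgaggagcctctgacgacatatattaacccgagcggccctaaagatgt
Hand2os1: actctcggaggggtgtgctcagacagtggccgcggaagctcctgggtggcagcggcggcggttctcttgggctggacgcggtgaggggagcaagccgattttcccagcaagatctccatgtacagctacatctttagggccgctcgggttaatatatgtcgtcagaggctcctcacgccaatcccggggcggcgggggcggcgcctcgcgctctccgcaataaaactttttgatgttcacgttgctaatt
The 4 motifs searched on both strands were the GATA motif AGATAA, the E-box CATCTG, the ETS motif GGAAGT and the TATA box TATAAA, and the matches did not overlap. The Hand2 window held the GATA motif on the opposite strand, its first base 172 bases before the start, and the E-box 246 bases before it. Of the 27025 promoter windows of that length, 10.3% held the GATA motif and 14.5% the E-box, while 5401 held the ETS motif and 3504 the TATA box. Among genes measured against capillary barcodes, 5.23% of windows held the GATA motif and 8.80% the E-box. Among genes at least 2-fold higher in endocardial barcodes these shares were 4.46% and 13.4%. The Npr3 and Hand2os1 windows held none of the 4, and the Npr3 window carried 28 GAA units in a row. The Hand2 and Hand2os1 windows share 123 bases, read in opposite directions.

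The other 5 of the 6 markers given for the cells were each higher in the endocardial than in the capillary barcodes. Plvap, the protein of the diaphragms of fenestrae and caveolae, was at 2186 CPM (2083 to 2294) in endocardial and 321 CPM (285 to 361) in capillary barcodes. Emcn, an endothelial sialomucin, was at 2071 CPM (1970 to 2176) in endocardial and 768 CPM (712 to 828) in capillary barcodes. Vwf, the platelet-tethering von Willebrand factor, was at 499 CPM (450 to 551) in endocardial and 125 CPM (103 to 151) in capillary barcodes. Emcn was thus also well above 0 in capillary cells, and the ratio of endocardial to capillary barcodes was smallest for it among the 5, at 2.70 (2.46 to 2.95). Cytl1, which encodes a small secreted protein, was at 717 CPM (659 to 780) in endocardial and 27.1 CPM (17.4 to 40.4) in capillary barcodes, a ratio of 26.5 (17.6 to 41.6). Tmem100, a membrane protein downstream of BMP signalling in endothelium, was at 199 CPM (169 to 233) in endocardial and 22.6 CPM (13.8 to 34.9) in capillary barcodes.

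Barcode by barcode the markers were uneven. After each barcode had been thinned at random to 2500 UMIs, Emcn was found in 106 of 111 endocardial barcodes (95.5%, 89.8 to 98.5%) and in 136 of 179 capillary barcodes (76.0%, 69.0 to 82.0%). Cytl1 was found in 59 of 111 (53.2%, 43.4 to 62.7%) and in 5 of 179 (2.79%, 0.913 to 6.40%). In Csf1r-positive macrophage barcodes, which should lack these genes and had a median of 5746 UMIs, the shares were 0.486% for Emcn and 0.707% for Cytl1. Pdgfra-positive barcodes without endothelial UMIs, largely fibroblasts, carried Tmem100 in 13.8%, beside 38.7% of endocardial and 0.707% of macrophage barcodes. The 5 markers together gave 0 to 39 of 2500 UMIs per endocardial barcode, with a median of 15, and a median of 2 in capillary barcodes. The 12 capillary genes other than Gpihbp1 summed to a median of 2 in endocardial and 97 in capillary barcodes.

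**Figure D1:**
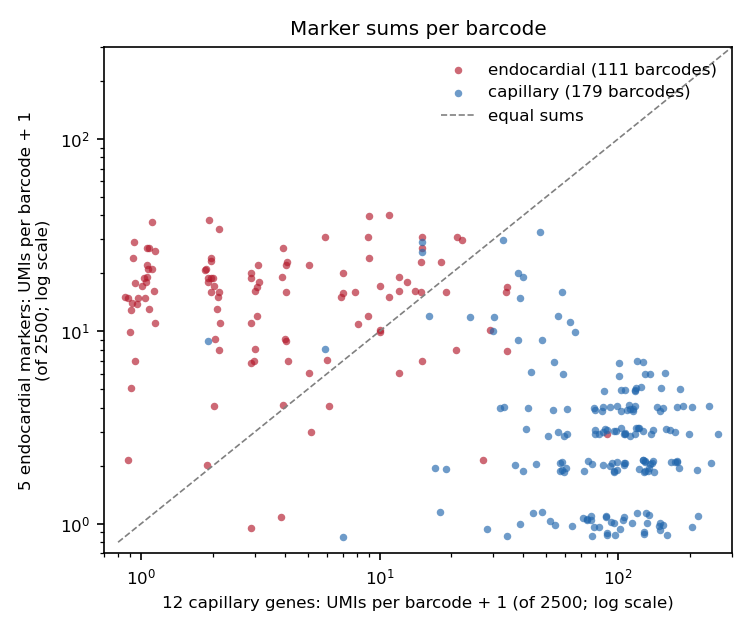
UMIs of the 5 markers Emcn, Plvap, Vwf, Cytl1 and Tmem100 (vertical) against UMIs of 12 capillary genes (horizontal) in each barcode after thinning to 2500 UMIs, with 1 added and both axes on a log scale; points are jittered slightly. The marker sum exceeded the capillary sum in 93 of 111 endocardial and in 4 of 179 capillary barcodes.

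Most but not all barcodes carried the given markers above the capillary genes, which is a description and no test of the label. The markers came with the rule, and the rule took out barcodes with Gpihbp1. Most of the capillary sum was Fabp4, whose levels are given below. The markers exceeded the capillary genes in 93 of 111 endocardial and 4 of 179 capillary barcodes, and also in 24 of the 33 barcodes with both Npr3 and Gpihbp1. They did so as well in 38 of the 114 barcodes with neither gene and in 21 of the 67 lymphatic barcodes. Such an excess is therefore not particular to the endocardial set. Markers of other cells were checked as whole lists. Cardiomyocyte markers summed to 22.3 CPM in endocardial and 32.8 CPM in capillary barcodes, with 3 of 7 genes at 0 in endocardial barcodes. Pericyte markers summed to 32.7 CPM in endocardial and 104 CPM in capillary barcodes, with Rgs5, their defining gene, at 0 in endocardial barcodes and 4 of 8 genes at 0 there. Macrophage markers summed to 204 CPM in endocardial and 281 CPM in capillary barcodes. B cell, platelet, erythroid and mesothelial sums were also lower in endocardial than in capillary barcodes. Neutrophil markers summed to 542 CPM in endocardial and 370 CPM in capillary barcodes, and T cell markers to 62.8 and 36.2 CPM. Schwann cell markers summed to 5.24 CPM in endocardial and 3.39 CPM in capillary barcodes. Arterial markers summed to 1284 CPM in endocardial and 1172 CPM in capillary barcodes, and venous markers to 1178 and 1080 CPM.

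Fibroblast RNA moved with the endocardial set. The 9 fibroblast markers outside the rule summed to 5608 CPM in endocardial and 911 CPM in capillary barcodes, all 9 with a UMI in both, and to 0 to 155 of 2500 UMIs per endocardial barcode with a median of 7, against a median of 2 in capillary barcodes. A UMI of at least 3 of the 5 genes Dcn, Lum, Col1a1, Tcf21 and Dpt was present in 29 of the 111 endocardial barcodes. Col1a1 was at 1925 CPM in these 29 and at 13.3 CPM in the other 82, whereas Dcn was at 3179 CPM in the 29 and 1724 CPM in the other 82, and Lum at 822 CPM in the 29 and 333 CPM in the other 82. In 9 barcodes with Ptprc, the leukocyte antigen CD45, Ccl5 was at 2250 CPM and Gzma at 1055 CPM, beside 39.8 CPM and 7.38 CPM in the 102 without it. Results were therefore also computed in 74 endocardial and 152 capillary barcodes with no Ptprc or Rgs5 and at most 2 of the 5 fibroblast genes, called here barcodes with few fibroblast genes. These still held Dcn at 1947 CPM in endocardial and 328 CPM in capillary barcodes, and Lum at 378 CPM in endocardial and 53.7 CPM in capillary barcodes, so that the selection lowered Col1a1 far more than Dcn or Lum. The part of RNA of other cells in the genes below was not tested beyond those values. Scrublet, a doublet caller, marked 2 endocardial and 4 capillary barcodes.

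Over all genes, 521 of 5142 genes (10.1%) were at least 2-fold higher in endocardial than in capillary barcodes and 447 (8.69%) at least 2-fold lower, with a median log2 ratio of 0.01. Because Npr3 and Gpihbp1 divided these cells, the counts describe the contrast and support nothing further. The genes of the rule are left out. The counts given below for each list of genes are to be read beside these shares.

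**Figure D2:**
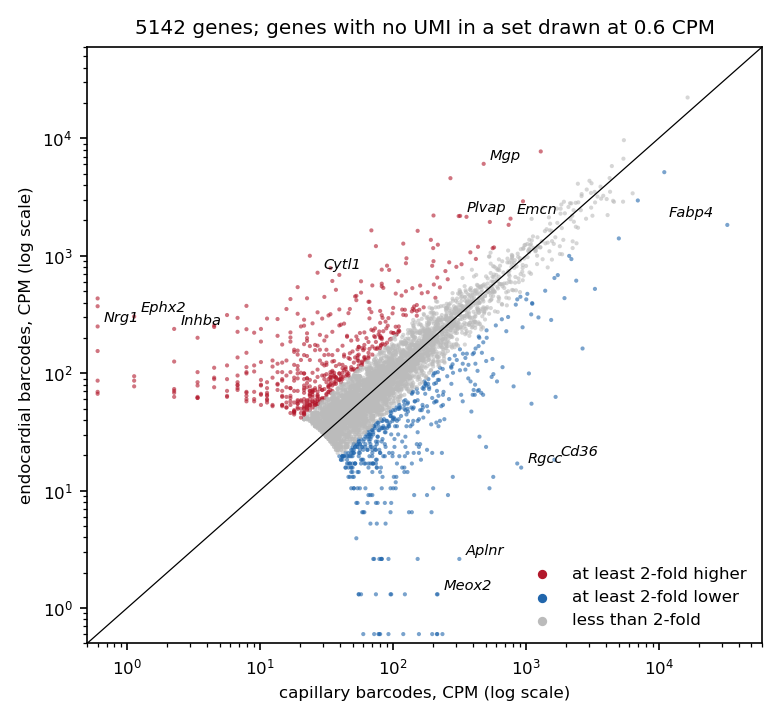
Level of 5142 genes in endocardial (vertical) against capillary barcodes (horizontal), in CPM of summed UMIs on log axes; a gene without a UMI in a set is drawn at 0.6 CPM. The 521 genes at least 2-fold higher lie above the diagonal and the 447 at least 2-fold lower below it; Nrg1 had no UMI in capillary barcodes and Fabp4 lies farthest to the right.

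Nrg1, neuregulin, which acts on ErbB receptors of cardiomyocytes, had 191 UMIs (250 CPM, 216 to 288) in endocardial and none in capillary barcodes, at least 73.8-fold higher against a floor of 3 UMIs over the set. Nrg1 was found in 29.7% (21.4 to 39.1%) of endocardial barcodes after thinning and in 0 of 179 capillary barcodes. Ahsg, which encodes the mineral-binding protein fetuin-A, had 331 UMIs in endocardial and 0 in capillary barcodes, at least 128-fold higher. Comp, a cartilage matrix protein, had 284 UMIs in endocardial and 0 in capillary barcodes, at least 110-fold higher. Neither gene was carried by a few barcodes, since Ahsg was found in 57 and Comp in 65 of the 111.

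Ephx2, the soluble epoxide hydrolase, had 232 UMIs in endocardial and 1 in capillary barcodes, a ratio of 269 (47.8 to 10660). Colec11, a lectin that starts complement, was at 255 CPM in endocardial and 4.52 CPM in capillary barcodes. Tmem158 was at 1000 CPM in endocardial and 23.7 CPM in capillary barcodes. The ratios of Plagl1, Smoc1, Gpm6a, Pdlim3 and Hand2os1 lay between 28.1 and 55.4, and Spon1 had 153 UMIs in endocardial and 3 in capillary barcodes, a ratio of 59.1 (19.8 to 289.6). Inhba, the activin subunit, had a ratio of 105 (28.8 to 877), but 150 of its 182 UMIs came from 5 barcodes.

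The list of endocardial and valve genes had 15 of 18 measured genes higher and 0 lower in endocardial than in capillary barcodes, with a median log2 ratio of 2.91 beside 0.01 for all genes. It includes the 5 markers other than Npr3, which were given with the rule, and others of it are usual endocardial markers. The whole list holds 27 genes, and those not measured had too few UMIs. Among these, Nfatc1 had a UMI in 17 of the 111 endocardial barcodes, and Wnt9b and Cldn11 in 5 each. Gata4, a cardiac transcription factor, was at 68.1 CPM in endocardial and 2.26 CPM in capillary barcodes. Cdh11, a cadherin of valve and mesenchymal cells, was at 292 CPM in endocardial and 11.3 CPM in capillary barcodes, and was found in 83 of the 111. Vcam1, the adhesion receptor for leukocytes that endocardium also uses in heart development, was at 1162 CPM in endocardial and 201 CPM in capillary barcodes. In the barcodes with few fibroblast genes, 14 of 17 measured genes of the list were higher and 0 lower.

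Among cardiac and endothelial transcription factors, 8 of 27 measured genes were higher and 10 lower, with a median log2 ratio of -0.18. Gata6, a partner of Gata4, was at 330 CPM in endocardial and 27.1 CPM in capillary barcodes. Hand2 was at 174 CPM in endocardial and 26.0 CPM in capillary barcodes, a ratio of 6.70 (4.28 to 10.9), and Hand2os1 at 374 CPM in endocardial and 7.91 CPM in capillary barcodes, a ratio of 47.3 (22.7 to 119). Hand2os1 runs from 57281117 to 57324233 on the minus strand of chromosome 8 and overlaps Hand2, at 57320983 to 57324633 on the plus strand, in the GENCODE annotation of GRCm38. RefSeq, which gave the promoter windows, starts Hand2os1 farther inside, next to the start of Hand2, and there the genes do not overlap. Which annotation was counted is not given in the sources used here. The strand setting of the count is not given in the sources used here, so UMIs of the pair may have been exchanged. In Pdgfra-positive barcodes, Hand2 was found in 17.9% and Hand2os1 in 6.40% after thinning, against 39.6% and 59.5% of endocardial barcodes.

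The factors lower in endocardial barcodes included those of capillary fatty acid handling. Meox2 and Tcf15, which together drive fatty acid transport in heart endothelium, had 1 and 8 UMIs in endocardial and 190 and 472 UMIs in capillary barcodes. Tcf15 was 50.9-fold lower (25.6 to 119) in endocardial barcodes and Meox2 164-fold lower (29.1 to 6512). Sox17, a factor of arterial endothelium, was at 13.1 CPM in endocardial and 283 CPM in capillary barcodes. Pparg, the lipid receptor, had 1 UMI in endocardial and 51 in capillary barcodes.

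Lipid uptake and capillary metabolism showed the lowest median of the lists. Of 18 measured genes 14 were lower and 2 higher in endocardial barcodes, with a median log2 ratio of -3.27. Fabp4, the fatty acid binding protein, was at 1831 CPM (1737 to 1930) in endocardial and 32887 CPM (32510 to 33267) in capillary barcodes, 18.0-fold lower. Cd36, the fatty acid translocase, was at 18.3 CPM (10.0 to 30.8) in endocardial and 1644 CPM (1561 to 1731) in capillary barcodes, 89.7-fold lower (53.3 to 165). Fabp4 was still found in 63 of the 111 endocardial barcodes, and 5 of them held 560 of its 1399 UMIs. Car4, a carbonic anhydrase of the capillary surface, had 0 UMIs in endocardial and 209 in capillary barcodes, at least 60.1-fold lower. The 2 genes higher were Apoe, a lipid carrier, at 4581 CPM in endocardial and 271 CPM in capillary barcodes, and Vegfb.

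**Figure D3:**
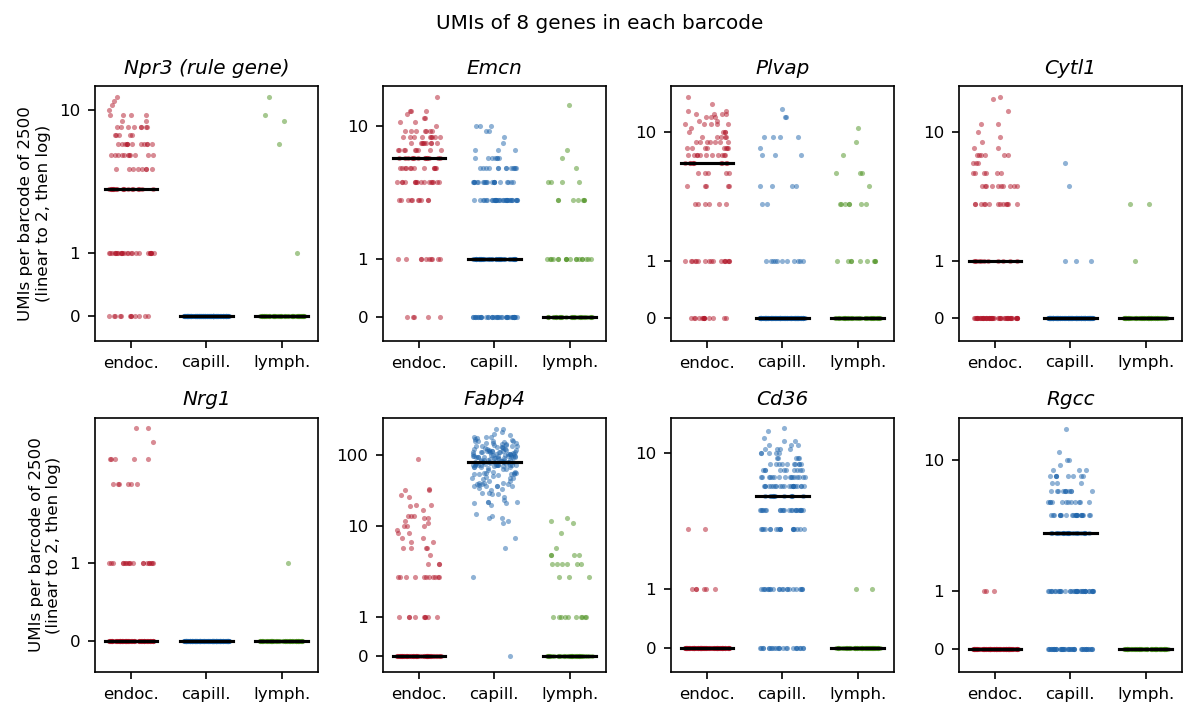
UMIs of 8 genes per barcode after thinning to 2500 UMIs, in endocardial, capillary and lymphatic barcodes from left to right; each point is a barcode, jittered sideways, the black line is the median, and the axis is linear up to 2 and logarithmic above. Npr3 is a gene of the rule, Fabp4, Cd36 and Rgcc have a median of 0 in endocardial barcodes, and Nrg1 was found in 33 endocardial, 0 capillary and 1 lymphatic barcode.

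Other leading genes on the capillary side were Rgcc, a cell cycle regulator used as a capillary marker, at 15.7 CPM in endocardial and 924 CPM in capillary barcodes, and Aplnr, the apelin receptor, with 2 UMIs in endocardial and 280 in capillary barcodes. Its ligand gene Apln had 0 UMIs in endocardial and 70 in capillary barcodes. Rbp7, Rflnb and Sparcl1 were 26.7-fold to 50.7-fold lower in endocardial barcodes, and the potassium channel gene Kcna5 had 1 UMI in endocardial and 109 in capillary barcodes. For Rflnb, 7 of its 10 endocardial UMIs came from the barcode with most UMIs. Btnl9, C1qtnf9 and Timp4 had 0 UMIs in endocardial barcodes. Rsad2, an interferon-induced antiviral protein, had 1 UMI in endocardial and 192 in capillary barcodes, and in its list of interferon genes 3 of 14 measured genes were lower and 1 higher, beside 8.69% lower and 10.1% higher over all genes.

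Signals sent to neighbouring cells were divided. Of 19 measured paracrine and vasoactive genes, 7 were higher and 8 lower in endocardial barcodes, with a median log2 ratio of 0.23. Edn1, endothelin-1, was at 428 CPM (383 to 477) in endocardial and 17.0 CPM (9.49 to 28.0) in capillary barcodes, a ratio of 25.3 (15.1 to 45.6), though it was found in 37 of the 111 and 5 of these held 46.8% of its UMIs. Ptgis, prostacyclin synthase, was at 352 CPM in endocardial and 15.8 CPM in capillary barcodes. The endothelin receptor gene Ednrb was at 607 CPM in endocardial and 110 CPM in capillary barcodes. On the other side stood Cxcl12, a chemokine, at 55.0 CPM in endocardial and 1105 CPM in capillary barcodes, beside Aplnr and Apln.

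Of the genes around the natriuretic peptides, 6 besides Npr3 were measured, 3 of them higher and 1 lower. The whole list holds 21 genes with Npr3, and the others had too few UMIs. The filter sums both sets and so drops genes low in both, which means that these counts do not describe the list as a whole. In barcodes with few fibroblast genes, 3 genes of the list were measured, 1 higher and 0 lower. Gucy1a1 and Gucy1b1, the subunits of the nitric oxide receptor that makes cGMP, were at 83.8 and 73.3 CPM in endocardial and at 6.78 and 2.26 CPM in capillary barcodes. Both fell under the filter in barcodes with few fibroblast genes, where Gucy1a1 had 31 UMIs in endocardial and 6 in capillary barcodes. Gucy1b1 had 30 UMIs in endocardial and 2 in capillary barcodes there. Pde3a, a phosphodiesterase inhibited by cGMP, was at 111 CPM in endocardial and 4.52 CPM in capillary barcodes. Npr1, the signalling receptor for atrial natriuretic peptide, was at 38.0 CPM in endocardial and 76.8 CPM in capillary barcodes, 2.02-fold lower (1.29 to 3.24), and was under 2-fold in 7 of the 8 other ways tried of choosing or weighting the cells.

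BMP and TGF-beta genes had 12 of 21 measured genes higher and 2 lower in endocardial barcodes, with a median log2 ratio of 1.09. Bmpr1a, a BMP receptor, had 72 UMIs in endocardial and 1 in capillary barcodes. Bmp6, a ligand, was at 189 CPM in endocardial and 22.6 CPM in capillary barcodes. Lower were Acvrl1, the receptor ALK1, at 30.1 CPM in endocardial and 97.2 CPM in capillary barcodes, and the BMP target Id1, at 284 CPM in endocardial and 1554 CPM in capillary barcodes. In the same list Id2 and Smad6 were higher, with log2 ratios of 1.92 and 1.98, while Id3 and Smad7 differed less than 2-fold. Of 8 measured Wnt genes 2 were higher, Wnt11, a ligand, with 66 UMIs in endocardial and 1 in capillary barcodes, and Sfrp1, a Wnt inhibitor, at 62.8 CPM in endocardial and 3.39 CPM in capillary barcodes. Sfrp1 was at 15.7 CPM in endocardial (7 UMIs) and 4.03 CPM in capillary barcodes (3 UMIs) with few fibroblast genes. Of 10 measured Notch genes 0 were higher and 4 lower, among them the Notch modifier Mfng, 10.0-fold lower (4.89 to 23.9), and the ligand Dll4, 2.89-fold lower (1.66 to 5.31).

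**Figure D4:**
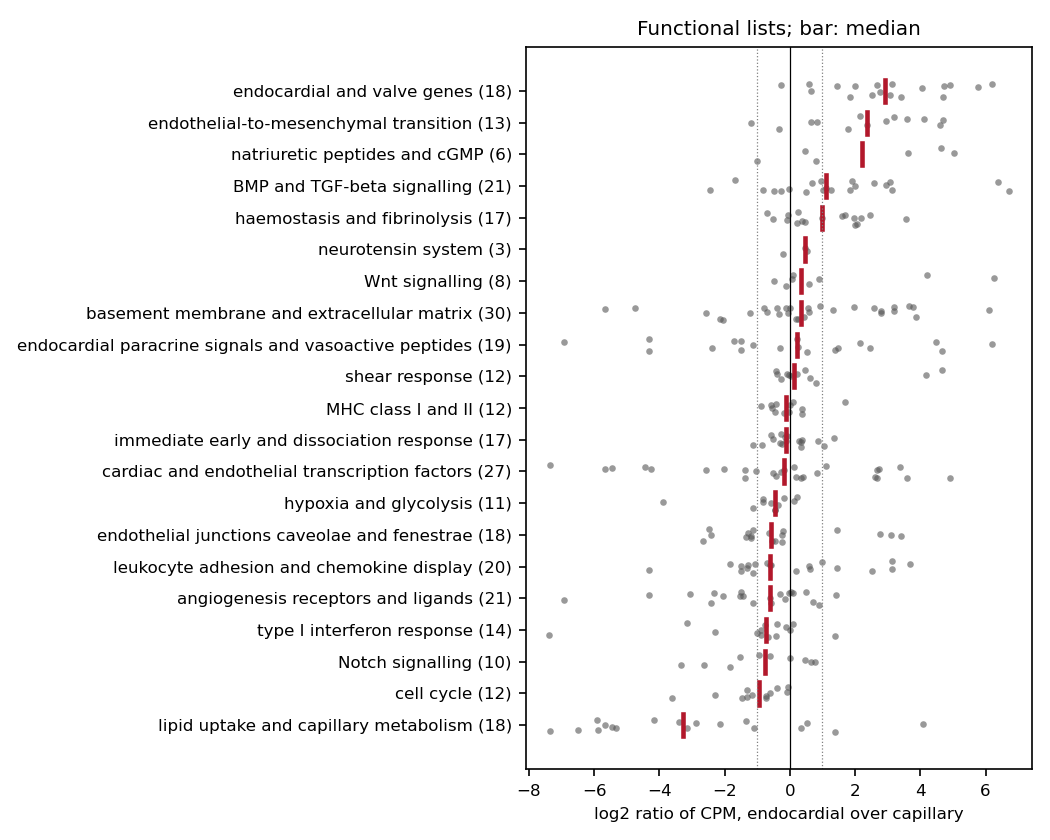
Log2 ratio of CPM, endocardial over capillary barcodes, for each measured gene of the functional lists, ordered by the list median (red bar), with the number of measured genes in brackets; dotted lines mark 2-fold. Endocardial and valve genes have the highest median, 2.91, and lipid uptake and capillary metabolism the lowest, -3.27, beside a median of 0.01 for all genes.

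Matrix and mesenchymal genes need the values on fibroblast RNA beside them. Mgp, the inhibitor of calcification matrix Gla protein, was at 6068 CPM in endocardial and 483 CPM in capillary barcodes, was found in 111 of 111 endocardial barcodes, and was at 6105 CPM in endocardial and 524 CPM in capillary barcodes with few fibroblast genes. Postn, the valve and fibroblast matrix protein periostin, was at 446 CPM in endocardial and 30.5 CPM in capillary barcodes, and at 363 CPM in endocardial and 22.8 CPM in capillary barcodes with few fibroblast genes. Lox, which crosslinks collagen, had 59 UMIs in endocardial and 1 in capillary barcodes. The basement membrane collagen genes Col4a2 and Col15a1 were 5.94-fold lower (4.73 to 7.54) and 4.44-fold lower (3.17 to 6.37) in endocardial barcodes, while the laminin genes Lama4, Lamb1, Lamb2 and Lamc1 differed less than 2-fold. Of 30 measured matrix genes 11 were higher and 6 lower.

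Of 13 measured genes linked to endothelial-to-mesenchymal transition, the change by which endocardium forms valve mesenchyme, 9 were higher and 1 lower in endocardial barcodes. Col1a1, a fibrillar collagen with 466 UMIs in endocardial and 31 in capillary barcodes, had 443 of its 466 endocardial UMIs in 5 barcodes. Acta2, smooth muscle actin, had 167 of 169 and Tagln, transgelin, 133 of 134 in 5 barcodes. The 6 smooth muscle markers summed to 415 CPM in endocardial and 65.5 CPM in capillary barcodes, with their defining genes Myh11 and Cnn1 at 0 in both sets. Col1a1 was among the 5 genes by which the barcodes with few fibroblast genes were chosen, so its fall there is partly built in. Among them Col1a1 was at 13.4 CPM in endocardial (6 UMIs) and 13.4 CPM in capillary barcodes (10 UMIs). Acta2 was at 2.24 CPM in endocardial (1 UMI) and 5.37 CPM in capillary barcodes (4 UMIs) there. In these barcodes 4 of 8 measured genes of the list were higher and 1 lower, and Cdh11 was at 307 CPM in endocardial and 13.4 CPM in capillary barcodes.

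Haemostasis genes had 8 of 17 measured genes higher and 0 lower, beside 10.1% higher and 8.69% lower over all genes. In barcodes with few fibroblast genes, 8 of 16 measured genes of the list were higher and 1 lower. Procr, the endothelial protein C receptor, was at 254 CPM in endocardial and 21.5 CPM in capillary barcodes, although 73 of its 194 endocardial UMIs came from a single barcode. Serpinf1 was at 89.0 CPM in endocardial and 21.5 CPM in capillary barcodes. In barcodes with few fibroblast genes it was at 4.48 CPM in endocardial (2 UMIs) and 17.5 CPM in capillary barcodes (13 UMIs). Of 20 measured genes of leukocyte adhesion and chemokines, 5 were higher and 8 lower. Ackr4, a scavenging chemokine receptor, was at 117 CPM in endocardial and 9.04 CPM in capillary barcodes. Ccl2, a monocyte chemokine, was at 350 CPM in endocardial and 39.6 CPM in capillary barcodes, but 91.4% of its UMIs came from 5 barcodes, and its log2 ratio was -0.12 when only barcodes with at least 2 Npr3 UMIs were taken.

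Junction genes had 4 of 18 measured genes higher and 8 lower. Cgnl1, paracingulin of tight junctions, was at 606 CPM in endocardial and 57.6 CPM in capillary barcodes, and Gja4, connexin 37, was at 450 CPM in endocardial and 52.0 CPM in capillary barcodes. Cldn5, the tight junction claudin of vessels, was at 72.0 CPM in endocardial and 406 CPM in capillary barcodes. Its 55 endocardial UMIs came from 3 of the 111 barcodes, and none of the 74 barcodes with few fibroblast genes held any. Of 21 measured angiogenesis genes 10 were lower and 1, Mmrn2, was higher. Cell cycle genes had 6 of 12 lower, among them Ube2c, 12.4-fold lower (5.46 to 34.7), and 0 higher. Shear response (2 of 12 higher, 0 lower), hypoxia and glycolysis (0 of 11 higher, 2 lower), immediate early genes (2 of 17 higher, 1 lower) and MHC genes (1 of 12 higher, 0 lower) gave counts to be read beside the 10.1% of all genes that were higher and the 8.69% that were lower.

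Set against the 67 lymphatic barcodes, which also were chosen by genes, 440 of 3974 measured genes (11.1%) were at least 2-fold higher in endocardial barcodes and 295 (7.42%) at least 2-fold lower. Npr3 itself was at 1165 CPM in endocardial and 195 CPM in lymphatic barcodes, where all 69 of its UMIs came from 5 of the 67. Nrg1 was at 250 CPM in endocardial and 8.46 CPM in lymphatic barcodes, and Vwf at 499 CPM in endocardial and 22.6 CPM in lymphatic barcodes. The chaperone Clu was 34.6 and the small heat shock protein Cryab 28.2 times as high in endocardial as in lymphatic barcodes. The protease Htra1 had 210 UMIs in endocardial and 2 in lymphatic barcodes, and Inhba had 182 and none there, at least 28.2-fold higher. Gpm6a, at 296 CPM in endocardial and 288 CPM in lymphatic barcodes, was a leading gene against capillaries that had a ratio of 1.03 here. Maf, a factor of lymphatic endothelium, had 1 UMI in endocardial and 248 in lymphatic barcodes, and the lymphatic glycoprotein Pdpn was 52.2-fold lower (19.8 to 196) in endocardial barcodes. Prss23, Fgl2 and Lcn2 were 33.8-fold to 64.2-fold lower, and Dtx1, Emid1 and Adamtsl1 had 1 or 2 UMIs in endocardial barcodes and 49 to 83 in lymphatic barcodes.

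The 111 barcodes also varied among themselves. Over 3916 genes with a mean of at least 0.1 of 2500 UMIs, the variance over the mean had a median of 1.07, and 12 genes led once the marker genes of other cells were left out. Malat1, a nuclear RNA, had 35.1, Igfbp5, an IGF-binding protein, 32.5, the heat shock gene Hspb1 30.4 and Fabp4 24.0. Ccl5, Slpi, Ccl2, Mt1 and Calca owed their place to few barcodes, the 20 UMIs of Calca to 1 and 93.7% of those of Ccl5 to 5. Fos, an immediate early gene, and Hspa1a, a heat shock gene, were broad, in 102 and 96 of the 111.

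Splitting the barcodes by Nrg1, a split chosen after the values had been seen and given as a description, set Edn1 and Igfbp5 apart. Nrg1 had a UMI in 46 barcodes (median 6709 UMIs per barcode) and none in 65 (median 5033 UMIs). Edn1 was at 780 CPM in barcodes with Nrg1 and 105 CPM in those without, a ratio of 7.41 (5.34 to 10.5), and Gja4 at 764 CPM in barcodes with Nrg1 and 163 CPM in those without. The ligand gene Bmp4 and the matrix signal gene Ccn2, added after their values were seen, were at 219 and 1638 CPM with Nrg1 and at 35.1 and 324 CPM without. The ratio of Bmp4 was 6.24 (3.51 to 11.9), and 10.1 (4.90 to 24.2) without the endocardial barcode that held most UMIs, which lacks Nrg1. Igfbp5 was at 490 CPM in barcodes with Nrg1 and 3664 CPM in those without, 7.48-fold lower (6.40 to 8.78). Both genes were uneven, since the 5 endocardial barcodes with most held 43.1% of the UMIs of Igfbp5 and 50.2% of those of Ccn2. Ednrb was at 293 CPM with Nrg1 and 895 CPM without, and Inhba at 21.9 CPM with Nrg1 and 436 CPM without.

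Over all the endocardial barcodes the 6 given markers differed less across that split than the genes above, some of them picked after their values were seen. Npr3 was at 1021 CPM with Nrg1 and 1297 CPM without, Emcn at 2560 CPM with Nrg1 and 1623 CPM without, and Vwf at 463 CPM with Nrg1 and 532 CPM without. Tmem100 was 2.75-fold lower (1.89 to 4.08) with Nrg1. Col1a1 was at 1199 CPM with Nrg1 and 70.2 CPM without. It had a UMI in 12 of the 46 barcodes with Nrg1 and in 13 of the 65 without. Most of its UMIs came from a few barcodes, as given above, so these levels do not describe the barcodes with Nrg1 in general. In the 74 barcodes with few fibroblast genes, 29 with Nrg1 and 45 without, Edn1 was at 962 CPM with Nrg1 and 100.03 CPM without. Igfbp5 was at 604 CPM with Nrg1 and 3213 CPM without there. Col1a1, among the genes that chose these barcodes, was at 19.3 CPM with Nrg1 (4 UMIs) and 8.34 CPM without (2 UMIs). Tmem100 was 3.49-fold lower (2.17 to 5.84) with Nrg1 in them, more than Ednrb, which was 3.01-fold lower (2.32 to 3.93). In the 16 endocardial barcodes with 2 lymphatic genes, the most the rule allows, Nrg1 was at 22.4 CPM, beside 293 CPM in the 51 with none.

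**Figure D5:**
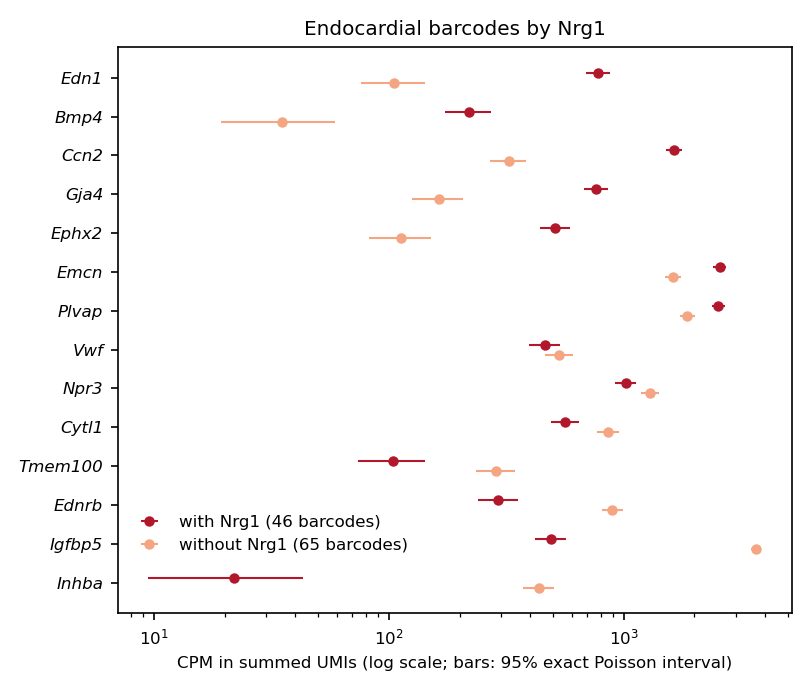
Level of 14 genes in the 46 endocardial barcodes with a UMI of Nrg1 (dark, upper) and the 65 without (light, lower), in CPM of summed UMIs on a log axis; bars are exact 95% Poisson intervals, which cover counting error only. Edn1 is at 780 CPM with and 105 CPM without Nrg1, and Igfbp5 at 490 CPM with and 3664 CPM without.

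Neurotensin, the peptide whose gene the study deleted, was found in all 3 endothelial sets. Nts was at 322 CPM (283 to 365) in endocardial, 374 CPM (335 to 417) in capillary and 1373 CPM (1254 to 1501) in lymphatic barcodes. Its 246 endocardial UMIs came from 21 barcodes, 63.0% of them from 5. The rule admits barcodes with some lymphatic genes, and 9 of the 21 held Lyve1, as did 33 of all 111. Whether lymphatic cells or their RNA account for Nts here was not tested. Because KO and control mice are mixed, a barcode without Nts through low expression and one without it through the deletion cannot be told apart. Nts and Nrg1 occurred together in 2 of 111 barcodes, with 21 holding Nts and 46 Nrg1. The receptor genes Ntsr1 and Ntsr2 had 0 UMIs in the endocardial set, which allows up to 3.93 CPM, and Sort1, which binds neurotensin in the secretory pathway, had 7 UMIs in endocardial and 7 in capillary barcodes. The CreERT2 transgene, a tamoxifen-dependent recombinase listed among the features, had 7 UMIs in 5 endocardial barcodes, 0 in capillary and 20 in lymphatic barcodes.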

How the data were processed

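Cells of 7 hashtagged mouse hearts were pooled and run on the 10x 3′ version 3.1 kit, per the labels' protocols. The deposited matrix holds whole-number UMI counts of 56954 features in 9369 barcodes (69993559 UMIs, 2567 to 42567 per barcode). The submitters' processing notes name STARsolo, Scanpy and the build mm10 but no versions; how barcodes were called as cells is not given in the sources used here. UMIs were summed per set and scaled to CPM, with 95% exact Poisson intervals; ratios have 95% exact binomial intervals and shares Clopper-Pearson intervals after thinning to 2500 UMIs. A count of 0 was set to 3 counts over the set. Genes needed at least 50 UMIs over both sets. Scrublet (scanpy 1.11.5) called 357 doublets (3.81%), which were kept.

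Genes were named by a rule: the given markers, the neurotensin genes, the leading 15 per side against capillary and 8 per side against lymphatic barcodes by interval bound, up to 4 per side of each list, and the 12 most variable. The members, lists and rule were chosen with earlier results of these data known. Some genes that the rule names are not reported here. Of 131 named genes 86 matched the RefSeq promoter table. Python 3.11.15, numpy 2.4.6, scipy 1.17.1, pandas 2.3.3, anndata 0.12.19 and matplotlib 3.10.9 were used.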

Additional observations from a re-analysis of the deposited data

How the results depend on the processing

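The counts of called genes stayed within 1.5 times their reported values in 9 of 12 alternatives against capillary and 7 of 10 against lymphatic barcodes. The filter on UMIs set them. With at least 20 UMIs over both sets, 980 genes were higher and 837 lower in endocardial than in capillary barcodes, with at least 200 UMIs 153 and 131, and without a filter 1967 and 1624. Against lymphatic barcodes these counts were 918 and 635, 142 and 66, and 1758 and 1322. Each filter keeps more or fewer genes by construction. Similar counts did not mean the same genes. Apart from the filters, fewest genes were called again against capillary barcodes when no lymphatic gene was allowed. There 295 of the 521 higher and 338 of the 447 lower genes were kept, among 3828 measured. In barcodes with few fibroblast genes 329 and 354 were kept, among 4128 measured. Of 114 named genes called against capillary barcodes, 8 (Adm, Ccl2, Fosb, Ier2, Msx1, Mt1, Myc and Npr1) came under 2-fold in some alternative that measured them, and 69 moved over 1.5-fold in some. In barcodes with few fibroblast genes 20 of the 114 had fewer UMIs than the filter asks, and 5 of these were no longer 2-fold higher there (Acta2, Col1a1, Myc, Serpinf1 and Tagln). Col1a1 was among the genes by which those barcodes were chosen. The log2 ratio of Ccl2 was -0.12 with at least 2 Npr3 UMIs per cell, where the cause was not tested. Against lymphatic barcodes 4 of 71 called named genes came under 2-fold. The alternative that left out the endocardial barcode with most UMIs, 29125 of the 763870, was chosen after seeing the data and gave 511 genes higher and 465 lower than in capillary barcodes. No paired analysis was possible because the expression matrix used here carries no mouse or replicate number for its cells. With 111 barcodes, a gene found in 0 of them may still have a UMI in up to 2.70% of such cells, and cells can express a gene without a captured UMI.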
